A study of Caenorhabditis elegans with 2 samples.

Results

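The strong intergenic peaks of DIE-1 outside promoters are 311 of the 29979 nuclear entries in the authors' relaxed list on both replicates together. The authors label that list as peaks and background, the input to their choice of reproducible peaks. Its entries are called peaks here, and the weaker ones may be background. The 311 were chosen by 2 measures, the signal the authors gave each peak and the place of its summit. The signal had to reach 70, which 6.08% of the nuclear peaks did. The summit had to lie outside every protein-coding gene and outside a window of 1000 bp upstream to 300 bp downstream of every protein-coding transcript start. It also had to lie over 200 bp from every tRNA, snoRNA, snRNA, rRNA and miRNA gene. Signal and place are therefore given as a description. Of the 311 peaks, 217 (69.8%) were also in the authors' list of reproducible peaks, which holds 4.71% of the nuclear peaks. That list starts at a signal of 79.4, and the 217 are all of the strong intergenic peaks that reach it. Signal therefore fixes that share.

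The study measured where DIE-1-eGFP sits on DNA by ChIP-seq, in which chromatin is sheared and the fragments bound by a protein are pulled down with an antibody and sequenced. There was 1 group with 2 biological replicates: whole young adult hermaphrodites of Caenorhabditis elegans strain RW10316, 64 hours after synchronization as starved L1 larvae. The worms carry a transgene of die-1 with a C-terminal GFP-FLAG tag, and the labels name an anti-GFP antibody in 1 field and die-1 in another. Whole worms mix all tissues, so the cells behind a peak are not known, and with 1 group nothing is compared between conditions.

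The transcription factor DIE-1 binds DNA through zinc fingers and is known for its role in the shaping of the worm embryo and in making a left and a right taste neuron differ. Worm genes lie close together, and most factors are found just upstream of transcript starts. The ground between genes holds the 3′ ends of genes, distant regulatory elements, repeats, pseudogenes and many short transcripts without a known product. A strong ChIP-seq peak there can lie at any of these, and its place alone does not say which gene, if any, it acts on.

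The strong intergenic peaks had a median signal of 89.9 (quartiles 77.7 and 115) and ran from 70.1 to 314. Signal was at least 100 in 115 of them, at least 150 in 28 and at least 200 in 7. What unit the signal has is not stated. The strong peaks were set beside the 4682 weaker peaks of the same kind of place, with a median signal of 26.95. These weaker peaks come from the relaxed list, so part of them may be background. The strong peaks were also set beside all 24.9 Mb of the genome that meets the same rule of place.

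The windows of 50 bp on each side of the summit of the 4 strongest peaks are shown because they carry the highest signal. They are the plus strand of WBcel235 (ce11), read from the RefSeq genome, with matches to the motifs searched in capitals. The first 2 lie over 1000 bp from any protein-coding gene, and the other 2 lie between a pair of genes whose 3′ ends face each other.

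dhs-8 upstream, chrII:14496934-14497034, signal 314: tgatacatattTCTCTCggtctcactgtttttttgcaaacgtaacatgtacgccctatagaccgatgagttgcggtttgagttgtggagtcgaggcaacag
sup-26 upstream, chrIII:4282173-4282273, signal 269: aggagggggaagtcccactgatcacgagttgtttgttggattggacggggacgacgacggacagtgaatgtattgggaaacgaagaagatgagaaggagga
D2096.7 3′ side, chrIV:8375505-8375605, signal 239: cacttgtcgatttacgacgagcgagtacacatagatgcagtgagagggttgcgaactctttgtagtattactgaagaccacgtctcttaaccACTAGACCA
mrpl-40 3′ side, chrIII:89294-89394, signal 232: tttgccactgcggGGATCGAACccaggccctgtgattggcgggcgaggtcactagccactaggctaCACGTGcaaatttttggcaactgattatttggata

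Both cores of the inner promoter of tRNA genes, the A box (TGGNNNAGT) and the B box (GTTCGANNC), occurred together in 7 windows. No annotated tRNA gene lies within 200 bp of these, by the rule. Of the 7 windows, 4 are shown, with both boxes in capitals. In the first 3 the boxes read on the minus strand, so the B box stands left of the A box.

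dpy-1 3′ side, chrIII:2031323-2031423, signal 159.8: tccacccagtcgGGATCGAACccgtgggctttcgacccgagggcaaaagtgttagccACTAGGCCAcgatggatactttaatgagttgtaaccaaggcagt
nipa-1 3′ side, chrIII:3112155-3112255, signal 123: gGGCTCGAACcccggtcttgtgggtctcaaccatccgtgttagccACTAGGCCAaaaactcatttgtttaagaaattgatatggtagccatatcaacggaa
spat-3 upstream, chrX:4607447-4607547, signal 123: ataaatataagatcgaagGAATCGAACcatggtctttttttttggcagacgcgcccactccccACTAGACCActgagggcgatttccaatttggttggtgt
set-8 upstream, chrX:13444420-13444520, signal 116: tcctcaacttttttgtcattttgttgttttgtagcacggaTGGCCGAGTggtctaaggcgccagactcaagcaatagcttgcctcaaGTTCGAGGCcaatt

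The word TGCGTCTC was found in 26 windows, and the 2 with the highest signal are shown with the word in capitals.

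egl-9 upstream, chrV:10466692-10466792, signal 133: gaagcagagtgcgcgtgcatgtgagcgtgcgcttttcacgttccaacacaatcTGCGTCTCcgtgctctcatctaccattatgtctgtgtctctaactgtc
F25E2.2 3′ side, chrX:806665-806765, signal 132: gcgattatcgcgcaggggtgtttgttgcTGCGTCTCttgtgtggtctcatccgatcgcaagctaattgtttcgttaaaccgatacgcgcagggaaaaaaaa

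The 15 strongest peaks were of several kinds of place. The strongest, at chromosome II 14496984, had a signal of 314, with 124 in replicate 1 and 185 in replicate 2. It lay 1042 bp upstream of dhs-8, which encodes a short-chain dehydrogenase, and 2533 bp upstream of cysl-2, a cysteine synthase relative, and inside the non-coding RNA gene K10H10.14. The second, on chromosome III at 4282223, had 127 in replicate 1 and 143 in replicate 2 and lay 1999 bp upstream of sup-26, which encodes an RNA-binding protein. Both stand just outside the promoter window of the rule or farther, on the 5′ side of their nearest gene.

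The next 3 lay close behind genes. The peak at chromosome IV 8375555 (103 in replicate 1, 137 in replicate 2) stood 167 bp from the 3′ end of D2096.7 and 184 bp from that of aagr-1, which encodes an acid alpha-glucosidase relative. On chromosome III at 89344 a peak (98.1 and 131 in replicates 1 and 2) stood 109 bp from the 3′ end of pat-4, the integrin-linked kinase gene, and a little nearer to that of mrpl-40, a mitochondrial ribosomal protein gene. On chromosome II at 5353877 a peak (89.5 and 139.7) stood 168 bp behind F09E5.7. In each of these the ground between the 3′ ends or behind the gene holds the summit.

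Of the other 10 of the 15, 5 lay inside another annotated gene. The peak at chromosome X 1837872 (75.8 in replicate 1, 140.3 in replicate 2) lay in the pseudogene T26C11.3. Another at chromosome IV 11956549 (81.4 and 118) lay in the non-coding RNA gene ZK829.13, between the 3′ ends of gdh-1, the glutamate dehydrogenase gene, and tgt-1, a tRNA-guanine transglycosylase gene, 1008 and 998 bp away. The peak at chromosome V 1151474 (83.3 and 108) lay in linc-128, 4797 bp upstream of the calmodulin gene cmd-1. Long intergenic RNA genes thus hold 2 of the 15, since the peak at chromosome I 4701381 (104 and 89.3) lay in linc-91, 2806 bp upstream of the chromatin remodeller gene chd-7. The fifth, at chromosome III 5211336 (75.4 and 116), lay in the RNA gene srpr-2.1, 445 bp behind ZC155.4. In its window 66.7% of the 30-base words occur more than once in the genome, with at most 2 copies. Among the 15 this also held for 29.2% of the words at the nas-30 peak described next, with up to 346 copies, and for 12.5% at the C14C11.7 peak, with at most 2.

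The last 5 of the 15 lay between genes with nothing annotated within 200 bp. At chromosome I 852217 the replicates gave 93.0 and 104, and zfr-1, a zinc finger RNA-binding protein gene, starts 1234 bp away. At chromosome V 5667517 they gave 67.3 and 129, with C14C11.7 on one side at 1431 bp and pqn-13 on the other at 2087 bp. At chromosome I 933513 they gave 59.2 and 138, in a gap with nas-30, an astacin protease gene, 4970 bp away and prhg-1 6597 bp away. The ground there is wider than at the peaks behind genes. At chromosome X 4209272 they gave 73.5 and 113, with 1299 bp to the 3′ end of hpk-1, a homeodomain-interacting kinase gene, and 1787 bp to F20B6.9. At chromosome X 6737764 they gave 71.3 and 107, with 4463 bp to R03E9.2 and 4587 bp to mdl-1, which encodes a partner of MAX-type factors. Replicate 2 was above replicate 1 in all but the linc-91 peak among the 15.

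The distance from summit to the nearest protein-coding gene had a median of 1268 bp over the strong intergenic peaks (quartiles 264 and 2524, range 2 to 9179), against 1575 bp for the weaker ones and 1869 bp for the bases of the place rule. The excess was in the class nearest to genes. From 1 to 200 bp lay 66 of the 311 (21.2%, 95% Wilson interval 17.0% to 26.1%), against 12.3% of the weaker peaks and 6.51% of the bases. In the next class, up to 500 bp, the shares were 9.97%, 10.2% and 7.35% for strong peaks, weaker peaks and bases. From there to 1000 bp they were 9.0%, 7.84% and 9.09%, and both other values lie within the interval of the strong peaks (6.30% to 12.7%). Beyond 5000 bp lay 16 strong peaks (5.14%, 3.19% to 8.19%), against 9.35% of the weaker peaks and 13.1% of the bases. The intervals cover counting error only, and no test was made, because place and signal chose the peaks.

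**Figure D1:**
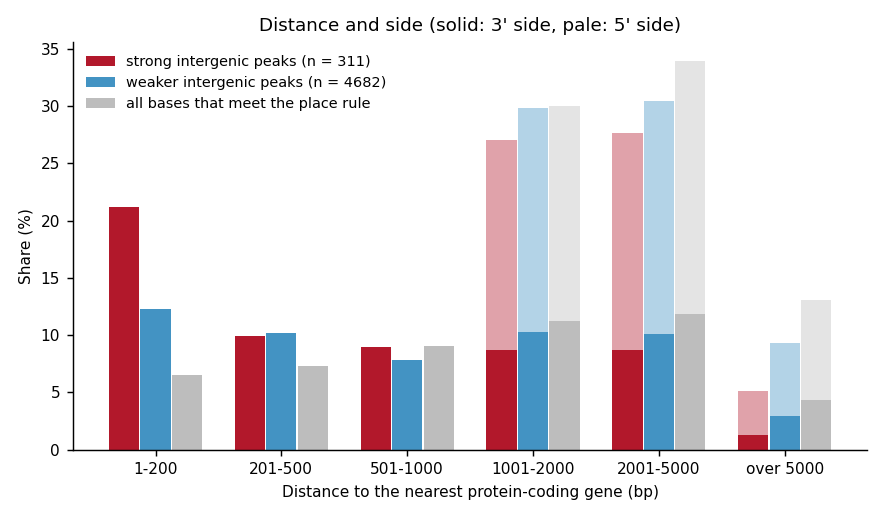
Share of the 311 strong intergenic peaks, the 4682 weaker ones and all bases of the place rule by distance in bp to the nearest protein-coding gene. Solid bars have that gene's 3′ end towards the summit, pale bars on top its 5′ end. Strong peaks have 21.2% in the first class, against 12.3% and 6.51%; up to 1000 bp all are on the 3′ side, because the rule removes 5′ ground there.

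Over all distances the nearest protein-coding gene showed its 3′ end to 183 strong peaks (58.8%, 53.3% to 64.2%), against 53.8% of the weaker peaks and 50.4% of the bases. The 125 strong peaks within 1000 bp are on the 3′ side by the rule itself. Farther out the side was free. Of the 186 beyond 1000 bp, 58 (31.2%) were on the 3′ side and 128 on the 5′ side, against 33.6% on the 3′ side for the weaker peaks and 35.7% for the bases. The 3′ share of the strong peaks was thus above the ground in total, and its interval held the weaker peaks' value. Beyond 1000 bp the share was a little below both other sets, but no interval was made there, so no direction is read from it. The total depended on the rule. With a promoter window of 500 bp upstream and 100 bp downstream it was 50.6% (45.7% to 55.5%), against 49.4% of the weaker peaks and 45.7% of the bases under the same window. The peak overlapped a coding gene in 66 of the 311. With the whole peak outside genes the share was 47.8% (41.6% to 54.0%), against 46.8% and 46.7%, so the 3′ side was then the smaller and both other sets lay inside the interval. The median distance was 1577 bp under that rule, against 1825 bp for the weaker peaks and 2026 bp for the bases.

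Flanking genes faced each other with their 3′ ends around 64 strong peaks (20.6%, 16.5% to 25.4%), against 17.4% of the weaker peaks and 16.4% of the bases. They pointed away from each other around 71 (22.8%, 18.5% to 27.8%), against 27.04% and 29.9%. The remaining 176 (56.6%) lay between genes in the same direction, against 55.5% and 53.5%. The gap between the flanking genes had a median of 5279 bp for the strong peaks and 6551 bp for the weaker ones. At 24 strong peaks both flanking genes had their 3′ ends within 500 bp.

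The 97 strong peaks within 500 bp of a 3′ end (31.2%) had a median signal of 89.8, with 38.4 in replicate 1 and 54.3 in replicate 2. Ribosomal protein genes, 78 in the annotation, were nearest to 7 strong peaks (2.25%, 1.09% to 4.57%), against 0.406% of the weaker peaks and 0.190% of the bases. All 7 were on the 3′ side within 500 bp, where 7 of the 4682 weaker peaks (0.150%) also had one. At rps-6 (96 bp) the replicates gave 61.8 and 102, and at rps-9 (8 bp) 55.4 and 55.2. At rpl-31 (93 bp) they gave 35.6 and 57.6, and at rpl-7A (71 bp) 49.1 and 41.0. Replicate 2 was higher at rps-6 and rpl-31 and not at the other 2. The remaining 3 were rpl-9, rps-27 and rps-14, at 2, 138 and 294 bp, with pooled signals of 89.6, 82.2 and 80.9.

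Of 22 heat shock genes by name, 2 were nearest to a strong peak (0.643%, 0.177% to 2.31%), against 0.107% of the weaker peaks and 0.0422% of the bases. The gene hsp-1, for an Hsp70 family chaperone, had its peak 27 bp behind it (48.0 in replicate 1, 82.9 in replicate 2). Its relative of the endoplasmic reticulum, hsp-3, had one 57 bp behind it (34.8 and 52.3). Of 25 translation initiation factor genes by name, eif-2alpha had one at 20 bp (32.2 and 48.7). Replicate 2 was the higher in these 3. The initiation factor share was 0.322% (0.0568% to 1.80%), against 0.0427% of the weaker peaks and 0.0133% of the bases. Of 6 elongation factor genes and 72 histone genes by name, none was nearest to a strong peak. A count of 0 allows a share of up to 1.22% by the Wilson bound. The weaker peaks had 0.0214% for elongation factor and 0.0641% for histone genes, and the bases 0.00581% and 0.0958%.

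Further genes with a strong peak close behind them, named after their values were seen, were of several functions. Behind the beta-tubulin gene tbb-2, where C36E8.4 faces it with its 3′ end, the replicates gave 87.2 and 79.1 at chromosome III 4015830. Behind mdl-1, at 140 bp, they gave 91.1 and 91.9. These 2 were close to even between replicates. Behind top-2, a topoisomerase gene, at 28 bp they gave 34.1 and 85.9, and behind fat-1, the omega-3 fatty acid desaturase gene, at 56 bp they gave 46.3 and 69.3. Behind act-2, an actin gene, at 120 bp they gave 19.3 and 94.9, and behind atp-1, an ATP synthase subunit gene, at 41 bp they gave 18.5 and 97.9. The last 2 rested mostly on replicate 2. In both of these windows every 30-base word occurs once in the genome.

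Nuclear receptor genes, 269 by name, were nearest to 8 strong peaks (2.57%, 1.31% to 4.99%), against 2.54% of the weaker peaks and 1.84% of the bases, and next to 13. Of these 8, 3 were on the 3′ side, and nhr-21 (chromosome II 7337667, signal 144, 1562 bp upstream) had the highest signal, with 46.1 in replicate 1 and 104 in replicate 2. Chemoreceptor genes, 1314 by name, were nearest to 3 (0.965%, 0.329% to 2.80%), against 3.33% and 5.29%, and these were srw-33, sra-30 and srw-32. Of 63 ceh homeobox genes ceh-37 was nearest to 1 (0.322%), against 0.427% of the weaker peaks and 0.496% of the bases. Of 156 collagen genes col-83 was nearest to 1 (0.322%), against 0.342% and 0.561%. Of 240 C-type lectin genes clec-182 and clec-1 were nearest to 1 each (0.643%), against 0.918% and 0.755%. Of 74 cytochrome P450 genes none was nearest to a strong peak, against 0.128% and 0.202%. For chemoreceptor genes the interval of the strong peaks lay below both other values. It held both other values for the nuclear receptor, ceh homeobox, collagen, C-type lectin and cytochrome P450 genes. All of these counts are small, and no test was made of any.

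The 5 strong peaks farthest from any protein-coding gene lay 7911 to 9179 bp away, on chromosomes II, III and X. The farthest, with a signal of 78.9 (37.5 in replicate 1, 33.3 in replicate 2), stood 9179 bp from W05H9.4 and 11760 bp from got-2.2. Next was a peak of 84.2 (39.4 and 44.0), 9069 bp upstream of egl-27, which encodes a chromatin factor, and 9506 bp behind the synaptotagmin gene snt-1. These 2 were even between replicates. The third, of 123 (41.1 and 77.9), lay 8860 bp behind Y46E12A.3 and 10222 bp upstream of the serotonin receptor gene ser-4, and its summit stood 3 bp from the tRNA pseudogene Y22D7AR.t1. The fourth, of 117 (51.2 and 64.1), lay 8268 bp upstream of aakg-1, an AMP-activated kinase subunit gene. The fifth, of 79.1 (31.5 and 45.9), lay 7911 bp upstream of tra-1, the terminal regulator of sex determination. In 4 of the 5 the nearest gene was on its 5′ side.

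Other annotated genes within 200 bp were found at 86 strong peaks (27.7%, 23.0% to 32.9%), against 23.6% of the weaker peaks and 24.0% of the bases. The classes within that total did not follow it. Genes of the annotation's ncRNA class, which holds transcripts of many lengths and mostly of no stated function, were near 60 strong peaks (19.3%, 15.3% to 24.0%), against 10.2% of the weaker peaks and 4.74% of the bases. The share was 13.8% at the 600 strong peaks in promoters and 10.7% at the 318 strong peaks in gene bodies. Pseudogenes were near 13 strong peaks (4.18%, 2.46% to 7.02%), against 10.8% of the weaker peaks and 12.7% of the bases. The piRNA genes, which encode the small RNAs that guard the germ line, were near 4 (1.29%, 0.501% to 3.26%), against 1.47% and 6.21%. The interval of the strong peaks thus lay above both others for ncRNA genes and below both for pseudogenes. For piRNA genes it lay below the bases and held the value of the weaker peaks, and no test was made of any class.

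The 60 peaks near ncRNA genes had 80 such genes, with a median length of 145 bases and a range of 49 to 14770. The longest, C30E1.9 on chromosome X, holds the summits of 3 strong peaks, with pooled signals of 115, 94.6 and 80.2. The summit was inside one at 32 peaks, upstream at 11 and downstream at 17, and 14 peaks had ncRNA genes on both strands. At egl-9, the prolyl hydroxylase gene of the oxygen response, F22E12.9 and F22E12.10 lie on opposite strands over the summit (59.8 in replicate 1, 73.9 in replicate 2). At ppm-2, a phosphatase gene, T23F11.7 and T23F11.10 do the same (65.2 and 86.7). The signal did not stand apart: the median was 88.6 for peaks near ncRNA genes and 89.98 for the other 251. The labels do not say how these transcripts were found.

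Long intergenic RNA genes were near 6 strong peaks (1.93%, 0.887% to 4.14%), against 1.30% of the weaker peaks and 0.927% of the bases. Besides linc-128 and linc-91, these were linc-151 (154 bp, signal 100.8), linc-1 (129 bp, 94.7), linc-129 (inside, 92.1) and linc-100 (192 bp, 77.1). The linc-129 peak gave 26.5 in replicate 1 and 66.1 in replicate 2 and lies nearest to sca-1, the calcium pump gene. The RNA gene tts-1, known from long-lived worms, had a strong peak 134 bp beyond its 3′ end (52.7 and 37.9), with a pooled signal of 70.6. No strong peak lay near an antisense RNA gene, which allows a share of up to 1.22% by the Wilson bound, where the bases have 0.0791%.

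Pseudogenes of protein-coding families held summits over a range of signal. Inside srh-238, a chemoreceptor pseudogene, the replicates gave 54.1 and 59.9. Inside wago-2, a pseudogene of the Argonaute family, lay 2 summits. The first, with a pooled signal of 81.9, had 44.5 in replicate 1 and no replicate 2 summit within 200 bp, and the second, of 71.9, had 14.3 and 67.0. Further pseudogenes near strong peaks were fbxa-207, srb-7, srw-78, srx-71 and srw-45, with pooled signals between 70.7 and 90.7. The median over all 13 was 80.9.

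Pseudogenes of tRNA genes are not among the 5 classes the rule keeps away from. They were near 4 strong peaks (1.29%, 0.501% to 3.26%), against 0.363% of the weaker peaks and 0.126% of the bases. The share was 1.26% at the strong peaks in gene bodies, so nearly the same, and 0.167% at those in promoters. Inside Y53G8B.t9 the replicates gave 49.4 and 71.5, beside Y22D7AR.t1 41.1 and 77.9, and inside Y94H6A.t1 37.1 and 47.1. Upstream of C25F9.t2, at 21 bp, they gave 13.3 and 62.9. Replicate 2 was the higher in all 4.

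The 7 peaks with both the A box and the B box had the boxes on 1 strand with the A box first, and the starts were 44 to 54 bp apart. In annotated tRNA genes these 2 cores, searched the same way, were both present, with starts 20 to 100 bp apart, in 131 of 612 (21.4%), at 42 to 94 bp and a median of 44. The pair occurred in that order in 10 of the 4682 weaker peaks (0.214%), against 7 of 311 strong peaks (2.25%). Their signals ran from 75.6 to 200.2, and only the nipa-1 peak lay at an annotated tRNA pseudogene. At the dpy-1 peak the replicates gave 61.8 and 105, at the spat-3 peak 49.5 and 74.7, and at the set-8 peak 38.3 and 75.8. The set-8 summit lay inside the ncRNA genes F02D10.13 and F02D10.15. The remaining 3 lay near zfr-1, Y53G8B.2 and nhr-277. The sequences were not folded or scored as tRNA genes, so a match says only that these letters are there.

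Summit windows of the strong intergenic peaks were rich in G and C for their ground. The median GC content of these windows was 46.5% (quartiles 41.6% and 52.5%), against 41.6% for the weaker peaks and 34.2% for the average base of the place rule. It was 47.5% for strong peaks in promoters and 43.6% for those in gene bodies. It also differed with distance. Within 200 bp of a gene the median was 41.6% for the strong peaks and 37.6% for the weaker ones, between 1000 and 2000 bp 48.5% and 42.6%, and beyond 5000 bp 50.5% and 42.6%. The strong peaks far from genes had the higher GC content, and the order of strong over weaker held in every class of distance. Bases that the genome file marks as repeats made up a median of 15.8% of the window, against 21.8% for the weaker peaks. Over all bases of the place rule they made up 40.4%, which is a mean and not a median over windows.

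**Figure D2:**
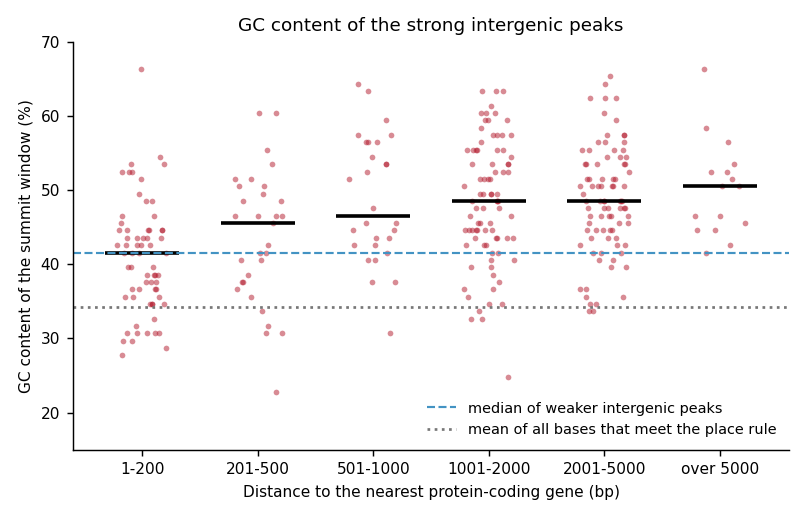
GC content in percent of the 50 bp on each side of each strong intergenic peak's summit, by distance in bp to the nearest protein-coding gene. Points are peaks, spread sideways for sight, and bars are medians, which run from 41.6% in the first class to 50.5% in the last; the dashed line is the median of the weaker peaks (41.6%) and the dotted line the mean of the bases (34.2%).

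The 8 motifs searched on both strands were chosen with earlier results of these data known, so their shares are a description only. Of these, 7 were more frequent in the strong peaks' windows than in the weaker peaks' and in the ground. GAGAGA was in 88 windows (28.3%, 23.6% to 33.5%), against 12.3% of the weaker peaks and 5.32% of all windows of the place rule. Strong peaks in promoters had it in 21.8% and those in gene bodies in 20.1%. Within 500 bp of a 3′ end it was in 12 of 97 strong peaks (12.4%), against 5.49% of the weaker ones, and beyond 1000 bp in 69 of 186 (37.1%), against 14.9%. The word TGCGTCTC was in 26 windows (8.36%, 5.77% to 12.0%), against 1.96% and 0.530%, and 15 of these also had GAGAGA. At strong peaks in promoters this word was in 6.67%, inside that interval, and at those in gene bodies in 4.09%. In 10 windows matches to different motifs overlapped.

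The boxes of RNA polymerase III promoters and of common factors followed. The A box core was in 30 windows (9.65%, 6.84% to 13.4%), against 4.91% of the weaker peaks and 3.75% of the ground. The B box core was in 14 (4.50%, 2.70% to 7.41%), against 1.52% and 0.704%, and their median signal was 112. The E box CACGTG and the GC box CCGCCC were each in 22 (7.07%, 4.72% to 10.5%), the first against 2.58% and 1.37%, the second against 3.70% and 1.59%. Repeats of GT, 4 in a row, were in 12 (3.86%, 2.22% to 6.62%), against 2.22% and 0.664%. TATAAA went the other way, with 14 (4.50%, 2.70% to 7.41%), against 9.80% and 12.6%. Strong peaks in promoters and in gene bodies had the A box core in 5% and 6.92% and the B box core in 1.33% and 2.52%. For the E box these shares were 4.67% and 7.23%, and for the GC box 8.33% and 5.03%. For the GT repeat they were 5.5% and 3.77%, and for TATAAA 4.17% and 6.60%. Most of these motif shares were thus not particular to the intergenic peaks. The windows differ in GC content and the motifs do too, and the part of GC content in these shares was not tested.

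**Figure D3:**
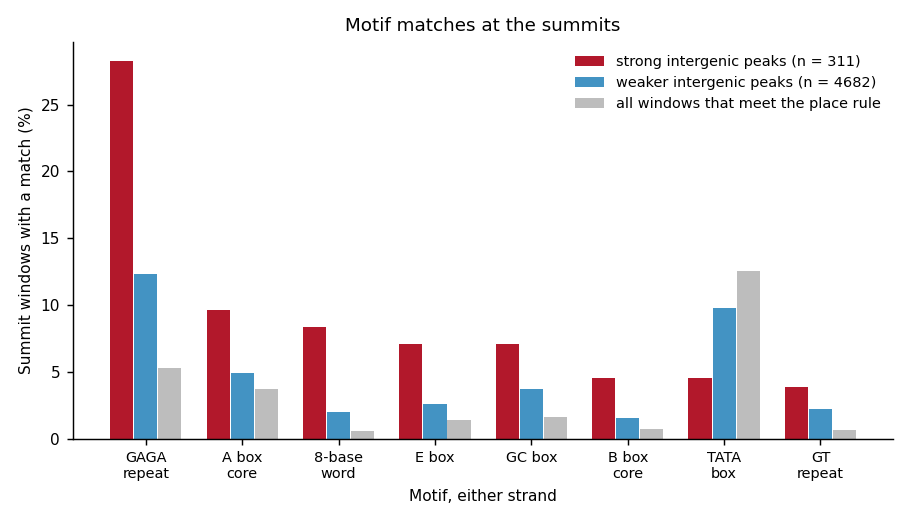
Share in percent of summit windows with a match to each of the 8 motifs on either strand, for the strong intergenic peaks, the weaker ones and all windows of the place rule. The GAGA repeat stands highest, at 28.3%, 12.3% and 5.32%, and the TATA box is the motif that is lower in the strong peaks, at 4.50%, 9.80% and 12.6%.

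The E box was in the windows of 3 of the 25 strongest peaks, those at mrpl-40, R03E9.2 and mdl-1. The R03E9.2 peak lies 4587 bp upstream of mdl-1 and the mdl-1 peak 140 bp behind that gene, and both have CACGTG. A further strong peak 5769 bp upstream of mdl-1, with a signal of 111, has no CACGTG. Both upstream peaks are nearer to R03E9.2, at 4463 and 3281 bp. Of the 311 windows, 171 had at least 1 of the 8 motifs and 140 had none. The second strongest peak, at sup-26, was among those with none.

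By chromosome, strong intergenic peaks were densest on III, with 53 peaks or 19.1 per Mb of place-rule ground, against 12.5 per Mb over all chromosomes. Chromosome I had 40 (14.4 per Mb), II 45 (12.6), IV 48 (9.64), V 58 (11.3) and X 67 (11.9). The weaker peaks had 255 per Mb on I, 212 on II, 241 on III, 150.2 on IV, 171 on V and 163 on X, so IV was lowest in both. The X chromosome held 21.5% of the strong peaks (17.3% to 26.4%), 19.6% of the weaker ones and 22.6% of the bases. Median signal by chromosome ran from 85.9 on II to 92.2 on III and X.

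**Figure D4:**
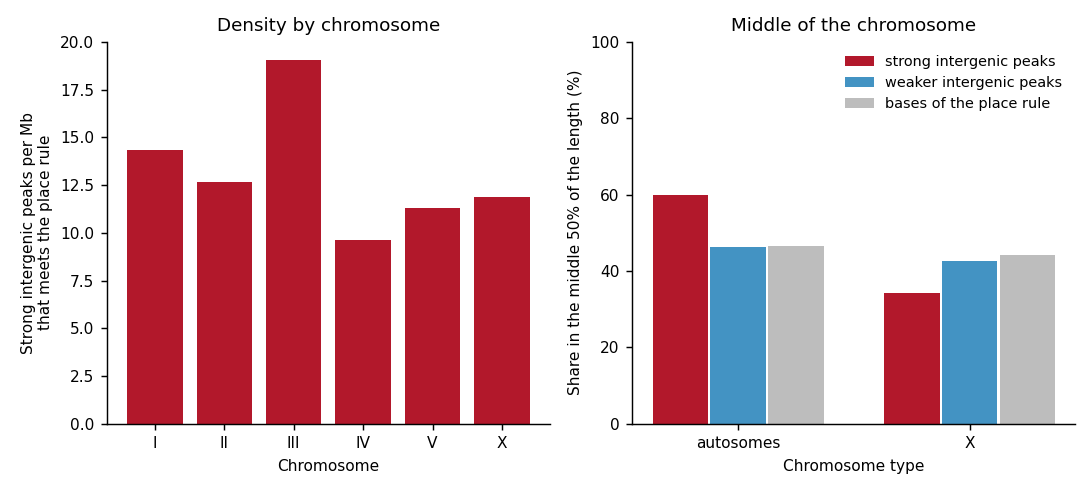
Left, strong intergenic peaks per Mb of ground that meets the place rule, by chromosome, with III at 19.1 and IV at 9.64. Right, share in percent of strong peaks, weaker peaks and bases in the middle 50% of the length, for the autosomes (59.8%, 46.3% and 46.5%) and X (34.3%, 42.7% and 44.2%).

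Along the autosomes, whose middles are gene-dense and whose arms are rich in repeats, the strong peaks lay towards the middle. The middle 50% of the length held 146 of 244 (59.8%, 53.6% to 65.8%), against 46.3% of the weaker peaks and 46.5% of the bases. Strong peaks elsewhere had more there still, with 65.7% of those in promoters and 64.5% of those in gene bodies. On X it held 23 of 67 (34.3%, 24.1% to 46.3%), against 42.7% and 44.2%. Cut into 4 equal lengths from left to right, X held 20, 14, 9 and 24. On X the interval of the strong peaks includes the value of both other sets.

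Both replicates held the strong peaks. A summit lay within 200 bp in the replicate 1 list for 308 of 311, in the replicate 2 list for 309 and in both for 306 (98.4%, 96.3% to 99.3%). The share in both was 33.4% for the weaker peaks, 99.2% for strong promoter peaks and 99.4% for strong gene-body peaks. The replicates are part of the pooled reads that chose the peaks, so this is no independent check. The median distance of the summits was 16 bp in replicate 1 and 8 bp in replicate 2.

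Signal was higher in replicate 2, with a median of 52.6 (18.2 to 185), against 40.2 (12.5 to 127) in replicate 1. The ratio of replicate 2 to replicate 1 had a median of 1.32 (quartiles 0.990 and 1.68) over 306 peaks and was above 1 in 227. The whole lists had medians in a ratio of 1.14, and the weaker intergenic peaks a median ratio of 1.15. Spearman's rho between replicates was 0.26 across these peaks, a description over peaks of the same 2 libraries that the threshold on pooled signal narrows. Ranks among the strong intergenic peaks thus differed between replicates.

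**Figure D5:**
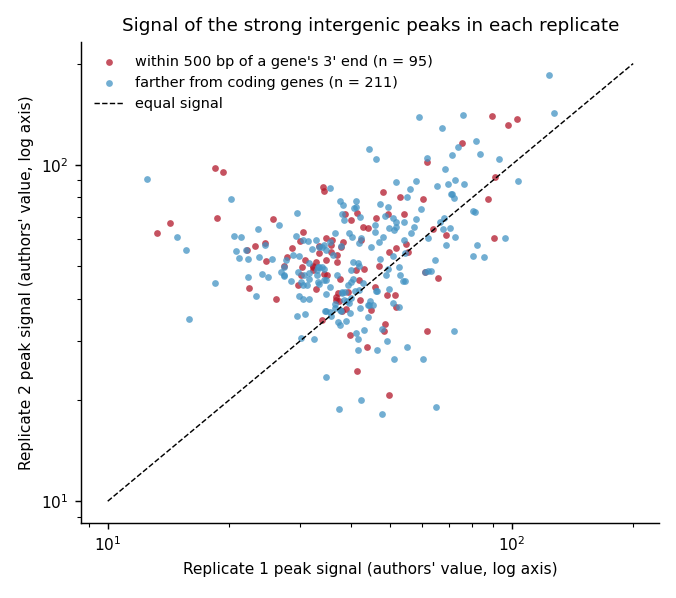
Signal of the 306 strong intergenic peaks found in both replicates, replicate 1 on the x axis and replicate 2 on the y axis, both as log axes of the authors' value. Each point is a peak, red within 500 bp of a 3′ end and blue otherwise; 227 points lie above the dashed line of equal signal, and the peaks farthest above it have 12.5 to 19.3 in replicate 1.

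The signals differed by over 3 times at 10 peaks. Replicate 2 was higher at 9 of them, and the most uneven was the peak near C30E1.4 on chromosome X, with 12.5 in replicate 1 and 90.9 in replicate 2. The atp-1 and act-2 peaks followed, and then C25F9.8 with the tRNA pseudogene above. Replicate 1 was higher at 1, near T04C4.3 on chromosome IV, with 65.2 in replicate 1 and 19.1 in replicate 2. The 5 peaks without a summit in 1 of the lists were nearest to dpy-1, sec-61.A, pop-1, tent-5 and dct-16. Of these, the ones at dpy-1, pop-1 and dct-16 lacked it in replicate 1, and the nearest summit there was 364 bp away at dpy-1 and 251 bp away at dct-16.

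Strong intergenic peaks mostly stood alone. Another one lay within 1000 bp of 19, and any strong peak within 1000 bp of 26. At the strongest such place, sup-26, the second summit had 77.4 beside the first with 269. Between gdh-1 and tgt-1 on chromosome IV 3 summits had 94.6, 196 and 76.2. The authors' peaks had a fixed width of 436 bp at 292 of the 311, and the 19 narrower ones (109 to 339 bp) had a median signal of 159.8. Of the 15 strongest peaks, 8 were narrow.

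At the threshold the peaks ran on without a gap. The last 3 inside it had 70.2, 70.1 and 70.1, near suca-1, Y50D4C.12 and npr-24. The first 3 of the same place outside it had 69.9, 69.8 and 69.8, near ztf-27, cya-1, the cyclin A gene, and pbo-6. At ztf-27 the replicates gave 44.4 and 34.8, more than at the last peak inside, near npr-24, with 30.03 and 30.48. The order of the replicate signals thus did not follow the pooled signal at the threshold.

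The words of 30 bases in the summit windows occurred once in the genome for 273 of the 311 peaks. At least 1 word was repeated in 38, and more than 50% of the words in 9. Without the 38, the nearest gene showed its 3′ end to 57.5% and another annotated gene lay within 200 bp of 27.5%.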

How the data were processed

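Peak lists of DIE-1-eGFP ChIP-seq were read as the authors deposited them on ce11. There was 1 per replicate (23789 and 29268 peaks), 1 relaxed list of peaks and background on both replicates (30000 entries) and 1 of reproducible peaks. Per the labels, chromatin was sheared by sonication; which aligner, peak caller, versions and reproducibility threshold were used is not stated there. The signal column is the authors' value per peak, and its scale is not stated. Any control behind it was not analysed here. The deposited −log10 q-value is capped (2.414 at 275 of the 311 peaks), so signal ranked the peaks. Sequencing depth is unknown.

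Summits, counted from 1, were placed on WBcel235 with Ensembl 115 gene models; 2756 of 2811 unnamed genes took a RefSeq name by identical position, and 209 pseudogenes were tRNA pseudogenes by RefSeq. Windows spanned 50 bp on each side of the summit. "Near" means within 200 bp. Shares have 95% Wilson intervals. Place finding was tested on simulated peaks. No test was made: there was 1 group with 2 biological replicates. Peaks, motifs and gene families were chosen with earlier results of these data known. Named were the 15 strongest peaks, named RNA genes and pseudogenes, the 5 farthest peaks, 3 on each side of the threshold and families; genes beyond these, including those of uneven replicates, were chosen after their values were seen. Alternatives changed thresholds, windows, distances and lists, and left out a replicate. Those without peaks holding repeated words, or without peaks uneven between replicates, were added after seeing the data. The comparison sets under other place rules were also recomputed after seeing the data. Tools were pandas 2.3.3 and numpy 2.4.6 under Python 3.11.15, with figures from matplotlib 3.10.9 and intervals from scipy 1.17.1.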

Additional observations from a re-analysis of the deposited data

How the results depend on the processing

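Of 79 alternatives over 7 results, 67 moved the value by less than its counting error (for the number of peaks, by under 1.5 times). With the whole peak outside coding genes the 3′ share turned from a majority to a minority. A signal threshold of 100 left 115 peaks in place of 311. The share with another annotated gene close by was 15.4% with the summit inside that gene and 42.1% within 1000 bp, in place of 27.7% within 200 bp. A promoter window of 500 bp upstream and 100 bp downstream gave a 3′ share of 50.6% and a median distance to genes of 913 bp. A window of 2000 and 500 bp gave 66.2% and 1834 bp, and peaks wholly outside coding genes gave 47.8% and 1577 bp. Recomputed the same way, after seeing the data, the weaker peaks had a median distance of 1204.5 bp under the first window, 2211 bp under the second and 1825 bp wholly outside genes, and the bases had 1496, 2537 and 2026 bp. The strong peaks' median was below both in each. Their 3′ share was above both in each, and the interval held the weaker peaks' value in each of the 3. A summit in both replicates was found for 89.4% of the peaks within 100 bp and for 100% within 500 bp. It was also 100% without the peaks that were uneven between replicates, which holds by construction. With the 1822 strongest peaks of 1 replicate alone there were 285 to 286 intergenic peaks, a 3′ share of 57.7% to 57.9%, a share on X of 21.4% to 23.4%, a share in the middle of the autosomes of 56.2% to 64.3% and a median distance of 1293 to 1302.5 bp. Another gene lay within 200 bp of 25.6% to 29.0%. No paired analysis was possible because there was 1 group.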
